A study of Rattus rattus with 8 samples.

Results

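Rxfp1, Inpp5j, A4galt, Epn3, Glod5, Srpk3 and Fsd2 are 7 of the 30957 genes in the table, and 7 of the 12983 with enough counts to be tested. They were chosen by their large 4n over 2n ratios in these same libraries and for being less known in heart muscle than the sarcomere genes around them. Their 4n over 2n differences are therefore given as a description, with no test. The question that can be tested is whether each follows Actc1 and Tnnc1, the cardiac actin and cardiac troponin C genes, from library to library within a group.

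The libraries were of tetraploid (4n) cells, 4 libraries, and of diploid (2n) cells, 4 libraries, sorted by Hoechst DNA stain signal from cultures of neonatal rat cardiomyocytes (NRCM) of SD rats aged 1 to 3 days. Both groups had the same history: enrichment by differential adherence, 24 h of culture with 0.2 mM AraC, which blocks DNA synthesis, and insulin-transferrin-selenium, serum starvation, then 48 h at 1% oxygen. No normoxic group was analysed here. The series text describes independent experiments, and a 4n signal can come from a tetraploid nucleus, a binucleated cell, a cell in G2 or M phase or a pair of 2n cells stuck together, which the labels do not separate. Animals are not named, so p-values measure the spread between these samples. Levels are given with SDs over the 4 libraries of a group, and fold changes and slopes with standard errors (SE).

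The products of these genes work in unlike places. Rxfp1 is the G protein-coupled receptor of the hormone relaxin, and Srpk3 is a kinase of serine- and arginine-rich splicing factors that in mice is largely a muscle enzyme under the transcription factor MEF2. Inpp5j removes a phosphate from inositol lipids of the PI3-kinase pathway, A4galt adds the terminal galactose that makes globo-series glycolipids, and Glod5 is named for a glyoxalase domain. Epn3 is an epsin, a family that binds clathrin and bends membranes in endocytosis, and Fsd2 is a fibronectin and SPRY domain protein reported in mouse muscle to bind myospryn, the product of Cmya5.

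Libraries held 15326219 to 16885512 counts in 4n and 14783521 to 21033772 in 2n. Mitochondrial genes took 24.95%, 25.9% and 24.1% of the counts in 4n replicates 2, 3 and 4 but 3.71% in 4n replicate 1, against 2.87% to 3.82% in the 2n libraries. The 10 cardiomyocyte markers found, none of them at 0, took 0.331% to 1.88% of the counts in 4n and 0.0481% to 0.0795% in 2n. The 7 fibroblast markers took 2.43% to 5.42% in 4n and 4.75% to 6.15% in 2n, a larger share than the cardiomyocyte markers in every library. Col1a1 and Col3a1 had the largest counts of the fibroblast list, 1402448 and 799540 in 4n. Summed shares of unlike lists therefore do not give shares of cells. In bulk RNA, fewer cells of a type and less RNA per cell cannot be told apart.

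All 7 genes were sparse. They averaged between 5.34 and 17.9 CPM (counts relative to the scaled library size) in 4n and between 0.174 and 0.728 CPM in 2n, and single 2n libraries gave between 1 and 22 counts per gene. They passed the filter on low counts only through the 4n libraries. Their log2 fold changes lay between 4.63 and 4.88, or 24.7- to 29.5-fold, and they held ranks 1, 2, 4, 6, 8, 9 and 10 by fold change among the 9862 named genes with at least 5 CPM in a group. Nppa and Unc45b were among the genes ranked between them, and Ptgds (log2 fold change 4.62) and Myl2 (4.602) came just after Fsd2 (4.63). Per length, Glod5 and A4galt stood highest in 4n at 6.60 ± 6.01 and 6.23 ± 5.82 FPKM, and Rxfp1 lowest at 1.40 ± 0.904 FPKM, against 2362 ± 1907 FPKM for Actc1 (SD, n = 4 each). In 2n the same genes had 0.269 ± 0.113, 0.317 ± 0.106 and 0.0654 ± 0.0234 FPKM, and Actc1 had 129 ± 56.3 FPKM. The SDs within 4n were wide beside these means, so the order of the members' FPKM levels is not resolved.

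**Figure D1:**
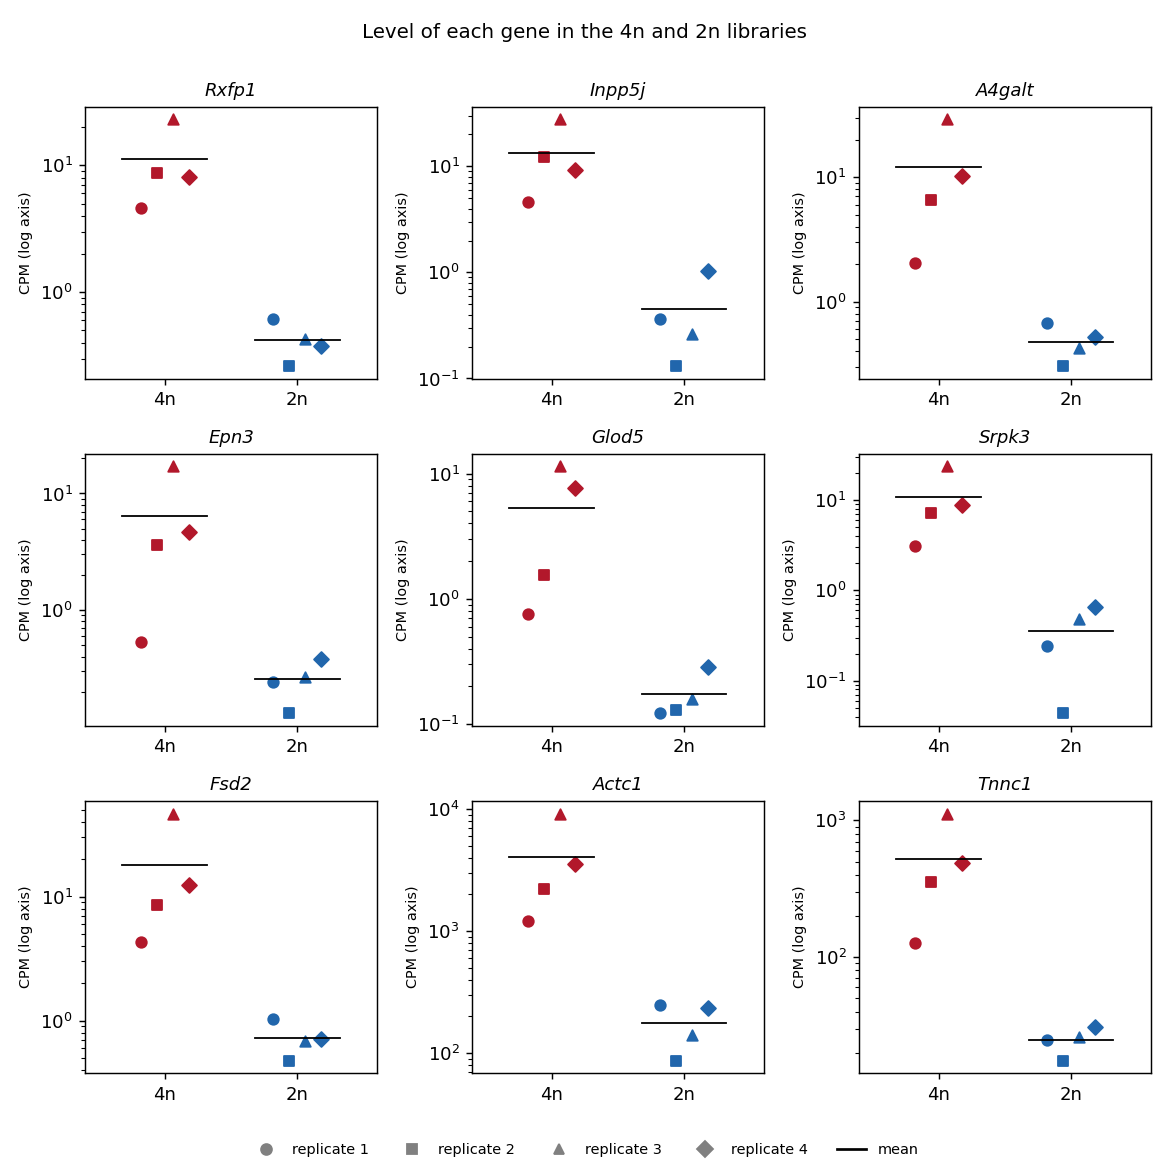
CPM on a log axis for the 7 genes and for Actc1 and Tnnc1 in the 4 libraries of 4n (red) and of 2n (blue), with a symbol for each replicate number and a line at the mean. No gene's groups overlap, which the choice of the 7 on large ratios favours. 4n replicate 3 is highest and 4n replicate 1 lowest among the 4n libraries in every panel. The closest approach is Epn3, where 4n replicate 1 has 0.537 CPM and the highest 2n library 0.379 CPM.

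Rxfp1, on chromosome 2 from 178399274 to 178521038 in Rnor_6.0, had 4.62, 8.77, 23.0 and 8.11 CPM in 4n replicates 1 to 4. In 2n replicates 1 to 4 it had 0.610, 0.260, 0.424 and 0.379 CPM. The lowest 4n library stood 7.58-fold above the highest 2n library, the widest gap of the 7 genes, and the log2 fold change was 4.74 ± 0.57 (SE).

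Srpk3, on chromosome X from 157008824 to 157013443, had 3.12, 7.21, 23.6 and 8.91 CPM in 4n and 0.244, 0.0434, 0.477 and 0.662 CPM in 2n (replicates 1 to 4). The 2n values rest on 4, 1, 9 and 14 counts, and the single count of 2n replicate 2 has an exact Poisson 95% interval of 0.0253 to 5.57 counts, which covers counting error only. The groups did not overlap, and the log2 fold change was 4.88 ± 0.79 (SE).

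Inpp5j, on chromosome 14 from 83730862 to 83741969, had 4.62, 12.2, 27.8 and 9.28 CPM in 4n and 0.366, 0.130, 0.265 and 1.04 CPM in 2n (replicates 1 to 4). 2n replicate 4, with 22 counts, stood above the other 2n libraries, which had 3 to 6. The log2 fold change was 4.87 ± 0.73 (SE), and 5.74 without 2n replicate 4.

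A4galt, on chromosome 7 from 124085834 to 124089385, had 2.04, 6.54, 29.1 and 10.2 CPM in 4n and 0.671, 0.304, 0.424 and 0.521 CPM in 2n (replicates 1 to 4). Its 4n libraries spanned 14.2-fold, against 7.55-fold for Actc1. The log2 fold change was 4.64 ± 0.79 (SE).

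Glod5, on chromosome X from 15225645 to 15240329, had the fewest counts, with 0.752, 1.56, 11.4 and 7.67 CPM in 4n and 0.122, 0.130, 0.159 and 0.284 CPM in 2n (replicates 1 to 4). The 4n libraries split into a low pair, replicates 1 and 2 with 14 and 21 counts, and a high pair, replicates 3 and 4 with 159 and 105 counts. The log2 fold change was 4.87 ± 0.93 (SE).

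Epn3, on chromosome 10 from 82220762 to 82229140, had 0.537, 3.64, 17.0 and 4.68 CPM in 4n and 0.244, 0.130, 0.265 and 0.379 CPM in 2n (replicates 1 to 4). 4n replicate 1, with 10 counts, stood only 1.42-fold above the highest 2n library, the narrowest gap of the 7 genes, and the 4n libraries spanned 31.7-fold, the widest. The log2 fold change was 4.63 ± 0.96 (SE).

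Fsd2, on chromosome 1 from 143364867 to 143398093, had the highest count, with 4.30, 8.48, 46.7 and 12.3 CPM in 4n and 1.04, 0.477, 0.689 and 0.710 CPM in 2n (replicates 1 to 4). 4n replicate 3 held 652 of the 1015 counts of the 4n group. The log2 fold change was 4.63 ± 0.77 (SE), and 3.52 without 4n replicate 3. Without that library, the fold changes of the other members lay between 3.49, for Epn3, and 4.24, for Inpp5j, all below their values with it.

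The differences between libraries of the same replicate number, taken from log2 CPM with a prior count of 2, were unequal. The prior count shrinks differences that rest on few counts, such as the members' 1 to 22 in a 2n library, but hardly those of Actc1. Differences in size or order between the members and Actc1 are therefore not resolved. For replicates 1 to 4, Actc1 differed by 2.31, 4.66, 6.02 and 3.94 on the log2 scale, so that replicate 3 was largest, then 2, 4 and 1. Rxfp1 and Epn3 had the same order. On this scale, the difference of replicate 4 was above that of replicate 2 in A4galt, Glod5 and Fsd2. In Srpk3 replicate 2 was largest (5.53, and 5.32 for replicate 3), with 1 count in 2n replicate 2. In Inpp5j replicate 4 was smallest (3.02, and 3.30 for replicate 1). The members lay between 0.86 and 3.30 for replicate 1, between 2.77 and 5.65 for replicate 2, between 5.32 and 6.20 for replicate 3 and between 3.02 and 4.29 for replicate 4. All 7 were higher in 4n in all 4 pairs, a direction that their choice favours, so it is not a result about them.

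Set against Actc1 in the same library, the 4n and 2n values overlapped. Actc1 itself had 22683, 29611, 128599 and 48877 counts in 4n and 4041, 1999, 2674 and 4920 in 2n (replicates 1 to 4). Per 10000 Actc1 counts, a ratio that needs no library scaling, Rxfp1 had 37.9, 39.9, 25.04 and 22.7 counts in 4n and 24.7, 30.0, 29.9 and 16.3 in 2n. Fsd2 had 35.3, 38.5, 50.7 and 34.6 per 10000 Actc1 counts in 4n and 42.1, 55.0, 48.6 and 30.5 in 2n. The groups overlapped in this ratio for all 7 genes, where none overlapped in CPM. Groups apart in CPM are favoured by the choice of the members on large ratios. Overlap in the ratio is favoured too, since their log2 fold changes of 4.63 to 4.88 lie close to 4.52 for Actc1. The share of all genes that overlap, in CPM or in the ratio, was not counted, so neither is a result about the members.

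The ratio means were close in both groups for A4galt, at 26.7 ± 6.72 per 10000 Actc1 counts in 4n and 28.6 ± 5.28 in 2n, and for Epn3, at 13.1 ± 6.24 in 4n, against 15.0 ± 3.71 in 2n (SD over 4 libraries each). Glod5 had 11.8 ± 7.02 in 4n and 10.8 ± 4.24 in 2n. Inpp5j had 37.4 ± 12.99 in 4n and 23.3 ± 14.4 in 2n, and Srpk3 had 27.2 ± 3.69 in 4n and 19.25 ± 13.9 in 2n; the 2n values rest on 1 to 22 counts. Srpk3 was the steadiest within 4n, where its ratio to Actc1 spanned 1.31-fold while its CPM spanned 7.58-fold. Epn3 was the least steady, at 4.20-fold, because of the 4.41 per 10000 in 4n replicate 1, and Glod5 spanned 3.48-fold.

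**Figure D2:**
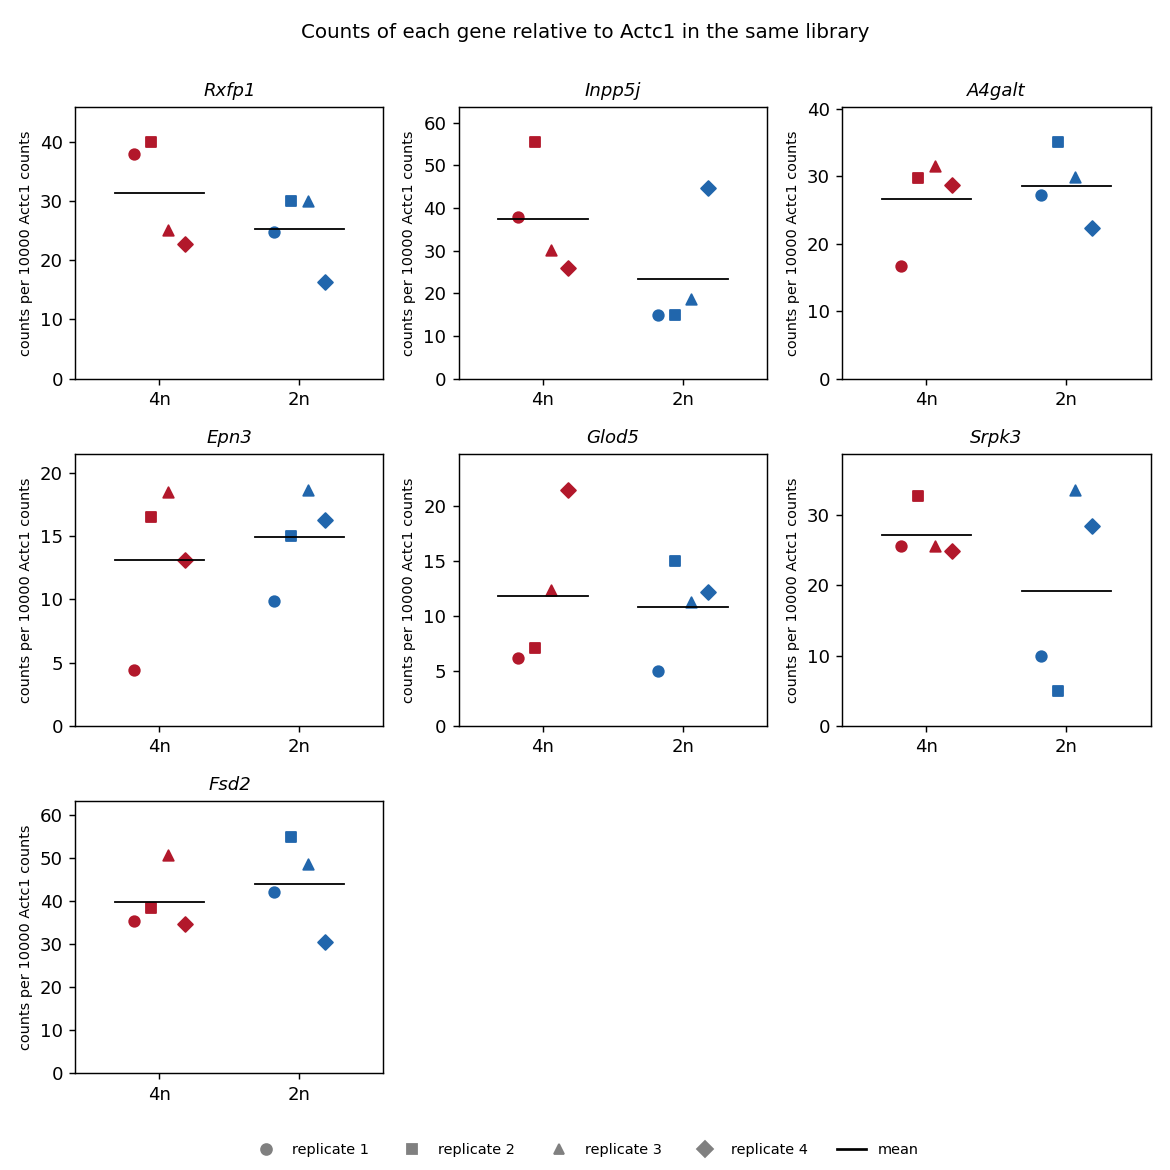
Counts of each gene per 10000 Actc1 counts of the same library, on a linear axis from 0, for the 4 libraries of 4n (red) and of 2n (blue), with a symbol for each replicate number and a line at the mean. The groups overlap in all 7 panels, and 4n replicate 1 is the low point for A4galt and Epn3. The genes' fold changes lie close to that of Actc1, which favours overlap.

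Whether the genes follow Actc1 was tested in a model of all genes with a group term and the log2 CPM of Actc1 centred within each group. The slope rests on how libraries of 1 group differ from each other and not on the 4n over 2n difference, and a slope of 1 means equal change on the log2 scale. The choice of members is not wholly apart from it, since the 4n means that chose them are raised by 4n replicate 3. Of the 7 genes, 5 had a positive slope past the threshold (edgeR's quasi-likelihood slope test at an adjusted p under 0.05), against 1.9% of all 12982 genes fitted beside Actc1. With Tnnc1 in place of Actc1, 6 of 7 passed, against 3.18% of all genes. The nearer comparison is with the 338 other genes called higher in 4n, of which 47.6% passed on Actc1 and 57.1% on Tnnc1. Over all genes the median slope was 0.01 on Actc1 and 0.02 on Tnnc1, and over the members it was 1.09 on both.

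Fsd2 followed Actc1 with a slope of 1.09 ± 0.12 (SE, edgeR adjusted p = 0.00231) and A4galt with 1.16 ± 0.14 (edgeR adjusted p = 0.00357). Epn3 had 1.38 ± 0.22 (edgeR adjusted p = 0.0157) and Rxfp1 0.73 ± 0.13 (edgeR adjusted p = 0.0228). Srpk3 passed narrowly, with 0.99 ± 0.20 (edgeR adjusted p = 0.0499). Glod5 (1.27 ± 0.28, edgeR adjusted p = 0.0666) and Inpp5j (0.88 ± 0.20, edgeR adjusted p = 0.0782) did not pass, which does not show that they follow Actc1 less than the others.

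On Tnnc1, the slopes were 1.56 ± 0.15 for Epn3, 1.22 ± 0.12 for A4galt, 1.09 ± 0.14 for Fsd2, 1.33 ± 0.25 for Glod5, 0.72 ± 0.14 for Rxfp1 and 0.99 ± 0.20 for Srpk3 (SE; edgeR adjusted p from 0.00168 to 0.0333). Inpp5j had 0.86 ± 0.21 and did not pass (edgeR adjusted p = 0.0651). The 95% confidence intervals held 1 for all 7 genes on Actc1 and for 6 on Tnnc1. The exception was Epn3 on Tnnc1, with an interval from 1.21 to 1.90, and differences between the members' slopes were not tested. In the 4n libraries, A4galt, Epn3, Glod5, Srpk3 and Fsd2 had the order of Actc1 and Tnnc1, with replicate 3 highest, then 4, 2 and 1, and Rxfp1 and Inpp5j had 2 above 4.

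The calls rest heavily on 4n replicate 3. Without it, 0 of 7 members passed on Actc1 or Tnnc1 in edgeR, and 0 of all other genes passed either, while 6 and 5 of the 7 had an unadjusted p under 0.05 and all slopes stayed positive, from 0.56 to 1.63 on Actc1 and from 0.50 to 1.67 on Tnnc1. Without 4n replicate 1, 2 of 7 passed on each. Without 4n replicate 2, 3 of 7 passed on Actc1 and 4 on Tnnc1, and without 2n replicate 3, 3 passed on Tnnc1. With the replicate number as a block, which pairs libraries of 1 number, 2 of 7 passed on each, A4galt and Fsd2, with edgeR adjusted p from 0.00724 to 0.0163, and the others had edgeR adjusted p from 0.0521 to 0.426. DESeq2 called 7 of 7 on each.

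**Figure D3:**
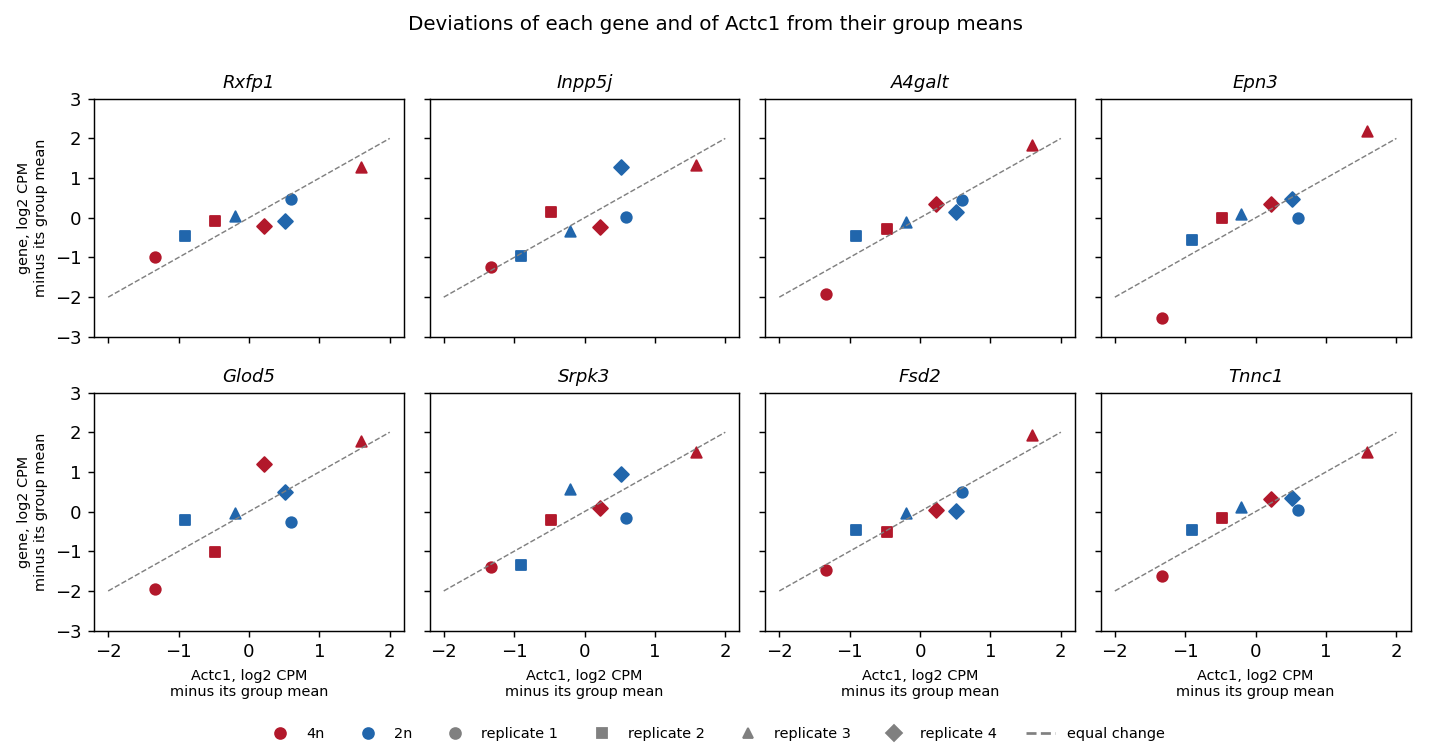
For each gene and for Tnnc1, the log2 CPM of a library minus its group mean (vertical) against the same for Actc1 (horizontal), in 4n (red) and 2n (blue) libraries, with the dashed line where both change equally. Along the horizontal axis, the ends are 4n replicates 3 and 1, and Glod5, with the largest SE of the slopes (0.28), strays from the line.

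**Figure D4:**
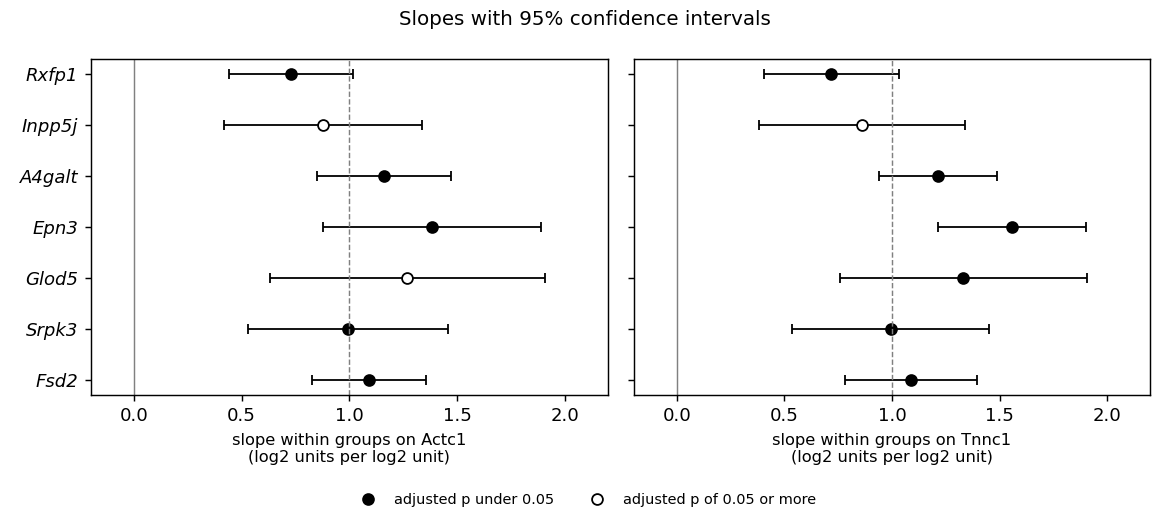
Slope of each gene on Actc1 (left) and Tnnc1 (right) within groups, in log2 units per log2 unit, with 95% confidence intervals; filled circles have an edgeR adjusted p under 0.05 and the dashed line marks a slope of 1. Filled are 5 of 7 on Actc1 and 6 of 7 on Tnnc1, and the interval of Epn3 on Tnnc1 lies above 1.

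Following Actc1 was common among genes higher in 4n. Of the 338 other genes called higher in 4n, 161 (47.6%) had a called positive slope on Actc1 and 193 (57.1%) on Tnnc1, with median slopes of 0.78 and 0.82. Of 9 other cardiomyocyte markers, 7 had a called slope on Actc1. Of 30 tested markers of other cell types, edgeR called 0 with a positive slope, beside 1.9% of all genes, and 1 with a negative one. At 1.9% of all genes, 0 positive calls among 30 say nothing about these markers. At an unadjusted p under 0.05, 2 of these markers had a positive slope, and DESeq2 called 1 positive. Among the 30, the endothelial genes Cdh5 and Kdr had slopes of 1.08 and 1.07, within the range of the members. The other endothelial markers had lower slopes, at 0.75 for Emcn, 0.59 for Vwf and 0.02 for Tek. The epithelial keratins Krt18 and Krt8 had 0.98 and 0.29. In edgeR, 0 of these slopes were called. Within 4n, replicate 1 was lowest in both the mitochondrial share and Actc1. With the mitochondrial genes left out, 4 of 7 members passed on Actc1 and 6 on Tnnc1.

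Markers of other cells that could express some of these genes are given beside them. A4galt also makes glycolipids of endothelial cells. The 5 endothelial markers found, none at 0, took 0.00545% to 0.0304% of the counts in 4n and 0.00251% to 0.00519% in 2n. Their summed share too was apart between the groups, narrowly outside 4n replicate 4. It was 0.00640%, 0.00545%, 0.00657% and 0.0304% in 4n replicates 1 to 4. Cdh5, Kdr, Vwf and Emcn were higher in 4n (log2 fold changes 3.17, 3.50, 2.83 and 2.98). Tek was lower (-0.21), and edgeR called 0 of the 5. The summed share was highest in 4n replicate 4, whereas A4galt was highest in 4n replicate 3. The part of endothelial cells in the level of A4galt was not tested. Epn3 is known from epithelia. The 4 epithelial markers, none at 0 over all libraries, took 0.000643% to 0.00190% in 4n and 0.000312% to 0.000956% in 2n. Epcam, which defines epithelial cells, had 3 counts in 4n and 0 in 2n. Cdh1 went the other way, with 14 counts in 4n and 47 in 2n. Krt18, also found in other cells, had most of the counts of that list in 4n. The summed share of the 6 smooth muscle markers was also apart, at 0.110% to 0.178% in 4n and 0.194% to 0.241% in 2n. It rests largely on Pdgfrb, with 66199 counts in 4n, and is a share of all counts, mitochondrial ones included. By gene, Pdgfrb and Myh11 were lower in 4n (log2 fold changes -0.46 and -0.34). Cnn1, Cspg4, Rgs5 and Kcnj8 were higher (0.61, 0.44, 0.32 and 0.07). The list median was 0.19 and edgeR called 0, so the genes of this list did not move together. The summed shares of the leukocyte markers (0.000308% to 0.00135% in 4n, 0.000380% to 0.000783% in 2n), the epicardial ones (0.00269% to 0.00817% in 4n, 0.00300% to 0.00772% in 2n) and the neural ones (0.00590% to 0.0131% in 4n, 0.0103% to 0.0140% in 2n) overlapped between the groups. The leukocyte sum rests largely on Cd14, with 253 counts in 4n and 363 in 2n. The others had more counts in 4n: Cd68 120 against 62 in 2n, Csf1r 53 against 8, Ptprc 44 against 1 and Adgre1 9 against 0. Of the 2 leukocyte markers tested, edgeR called 0. Genes of the epicardial and neural lists also went both ways.

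The profiles most like these genes were then looked up over the 8 libraries. Likeness was the root-mean-square difference between log2 CPM values, each gene centred on its own mean, and it includes the 4n over 2n difference that chose the members. Fsd2 was nearest to Myl2, the ventricular myosin light chain (0.13), then Smyd1, a muscle methyltransferase (0.19), and Tnni1, slow troponin I (0.19). A4galt was nearest to Myl2 (0.19), Hcn4, a pacemaker channel (0.21), and Fsd2 (0.22). Rxfp1 was nearest to Tnni1 (0.24), Acta1, skeletal actin (0.27), and Adra1a, an adrenergic receptor (0.29).

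Srpk3 and Inpp5j had Nup210, a nuclear pore protein, as their nearest gene (0.32 and 0.33). Myoz2, a Z-disc protein (0.32), and Eef1a2, a translation factor of muscle and neurons (0.35), followed for Srpk3. Unc45b, a myosin chaperone (0.40), was also among the nearest to Inpp5j. Epn3 was nearest to Fam189a2 (0.34), Asb4 (0.36) and Trim63, a muscle ubiquitin ligase (0.38). Glod5 was nearest to Ptgds, a prostaglandin D synthase (0.33), Trim63 (0.36) and Adora1, an adenosine receptor (0.37). Among 9737 candidates, Actc1 ranked from 16, for Inpp5j, to 116, for Epn3, and Tnnc1 from 8, for A4galt, to 41, for Inpp5j.

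Most relatives of these genes did not pass the test between 4n and 2n. Of 69 tested genes in 7 lists of relatives and partners, 6 rose and 0 fell in 4n (edgeR quasi-likelihood test with Benjamini-Hochberg adjustment), against 2.67% of all 12983 genes higher and 0.0077% lower. The lists were chosen with earlier results of these data known, so the 6 is a description beside that share. At 2.67% of all genes, 0 calls in a list of 5 to 14 genes say nothing about that list. The median log2 fold change of the 69 was 0.02, against -0.01 over all genes. Before adjustment, 14 were higher and 5 lower at p under 0.05, and DESeq2 called 9 higher and 0 lower. Without 4n replicate 4, or without 2n replicate 1, 2, 3 or 4, 0 of the 69 passed in edgeR, with 11 to 13 higher at an unadjusted p under 0.05.

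The genes that rose lay in the lists around Fsd2 and Srpk3. Of 9 tested relatives and partners of Fsd2, 5 rose, with a list median log2 fold change of 3.45. This list was drawn up with earlier results of these data known. It holds muscle genes, among them Ryr2, which is also a cardiomyocyte marker here, so its count is a description and no test of relatives of Fsd2. Cmya5, or myospryn, averaged 10.2 ± 7.65 CPM in 4n, against 0.929 ± 0.518 CPM in 2n, a log2 difference of 3.45 ± 0.58 (edgeR adjusted p = 0.0252). Ryr2, the calcium release channel of the heart, averaged 129 ± 105 CPM in 4n, against 8.50 ± 5.22 CPM in 2n, a log2 difference of 3.92 ± 0.67 (edgeR adjusted p = 0.0258). The muscle ubiquitin ligases Trim54 (4.55 ± 0.52) and Trim55 (4.52 ± 0.67) rose too, both with an edgeR adjusted p of 0.0252. The fifth gene, Trim63, another muscle ubiquitin ligase, was named after its values were seen and rose by 3.98 ± 0.75 (edgeR adjusted p = 0.0306). All 5 had a called positive slope on Actc1. Fsd1 and Fsd1l, the genes with the most similar names, differed by -0.30 ± 0.42 and 0.93 ± 0.29 on the log2 scale, neither past the threshold (edgeR adjusted p = 0.759 and 0.144). Mid1, with the highest CPM of the list among those that did not pass, averaged 29.4 ± 5.74 CPM in 4n, against 34.4 ± 8.16 CPM in 2n.

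Of 17 SR protein kinases and splicing factors, 1 rose. This was Rbm20, a splicing factor of titin and other heart transcripts, which averaged 61.4 ± 53.7 CPM in 4n, against 3.90 ± 1.71 CPM in 2n, a log2 difference of 3.97 ± 0.66 (edgeR adjusted p = 0.0252). Rbm20 had a slope of 1.00 on Actc1 (edgeR adjusted p = 0.00165). The kinases Srpk1 and Srpk2, found in most tissues, did not pass: Srpk1 differed by -0.20 ± 0.13 on the log2 scale (edgeR adjusted p = 0.472) and Srpk2 by -0.04 ± 0.12 (edgeR adjusted p = 0.884). Per length, Srpk1 had 22.1 FPKM in 4n and 29.8 FPKM in 2n, and Srpk2 had 10.9 FPKM in 4n and 13.3 FPKM in 2n, against 4.57 ± 3.48 FPKM of Srpk3 in 4n and 0.189 ± 0.142 FPKM in 2n. Srsf1, which had the highest CPM over both groups of those that did not pass, had a log2 fold change of 0.02 ± 0.21 (edgeR adjusted p = 0.972).

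In the relaxin list, edgeR called 0 of 5 tested genes and DESeq2 called 1, with 2 genes higher and 1 lower before adjustment at p under 0.05. The hormone genes had almost no counts. Rln1 had 0 counts in 4n and 2 in 2n, Insl3 had 0 in 4n and 3 in 2n, and Rln3 had 0 in every library. Rxfp2, the receptor of Insl3, had 12 counts in 4n and 31 in 2n and was too sparse to test. Gnao1, the Go subunit, is named here after its values were seen: it averaged 25.2 ± 20.5 CPM in 4n, against 5.28 ± 1.89 CPM in 2n, a log2 difference of 2.26 ± 0.56. Gnao1 did not pass (edgeR adjusted p = 0.0738) but did with the replicate block (edgeR adjusted p = 0.0491), and its slope on Actc1 was 0.78 (edgeR adjusted p = 0.0399). Gnas, the Gs subunit, averaged 244 ± 22.9 CPM in 4n, against 216 ± 9.17 CPM in 2n, but 2 rows of the table share its symbol, which makes its level uncertain.

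Of 8 other inositol phosphatases, edgeR and DESeq2 called 0, with 1 higher and 1 lower at p under 0.05 before adjustment. Their log2 fold changes ran from -0.47 to 0.55, and Inppl1, with the highest CPM of the list, averaged 99.2 ± 14.5 CPM in 4n, against 89.3 ± 8.51 CPM in 2n. Of 11 genes of globo-series and related glycolipids, edgeR and DESeq2 called 0 and 0 had an unadjusted p under 0.05, with log2 fold changes from -0.41 to 0.27. Ugcg, which makes the glucosylceramide that these lipids are built on, averaged 134.5 ± 48.3 CPM in 4n, against 179 ± 64.2 CPM in 2n.

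Of 14 epsins and clathrin adaptors, edgeR called 0 and DESeq2 called 1 higher, with 1 higher and 3 lower at p under 0.05 before adjustment. The epsin Epn1 differed by 0.20 ± 0.12 on the log2 scale (edgeR adjusted p = 0.437) and Epn2 by -0.07 ± 0.11 (edgeR adjusted p = 0.781). Per length, Epn1 had 42.5 FPKM in 4n and 43.3 FPKM in 2n, and Epn2 had 13.9 FPKM in 4n and 17.2 FPKM in 2n, against 1.58 ± 1.69 FPKM of Epn3 in 4n and 0.0789 ± 0.0309 FPKM in 2n. Cltc, the clathrin heavy chain, with the highest CPM of the list but not the highest FPKM, had a log2 fold change of -0.19 ± 0.12 (edgeR adjusted p = 0.450). Of 5 glyoxalase-fold genes, edgeR called 0 and DESeq2 called 1 higher, with 3 higher at p under 0.05 before adjustment. Glo1, the main glyoxalase, averaged 102 ± 16.0 CPM in 4n, against 87.3 ± 11.1 CPM in 2n, a log2 difference of 0.23 ± 0.15 (edgeR adjusted p = 0.464).

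**Figure D5:**
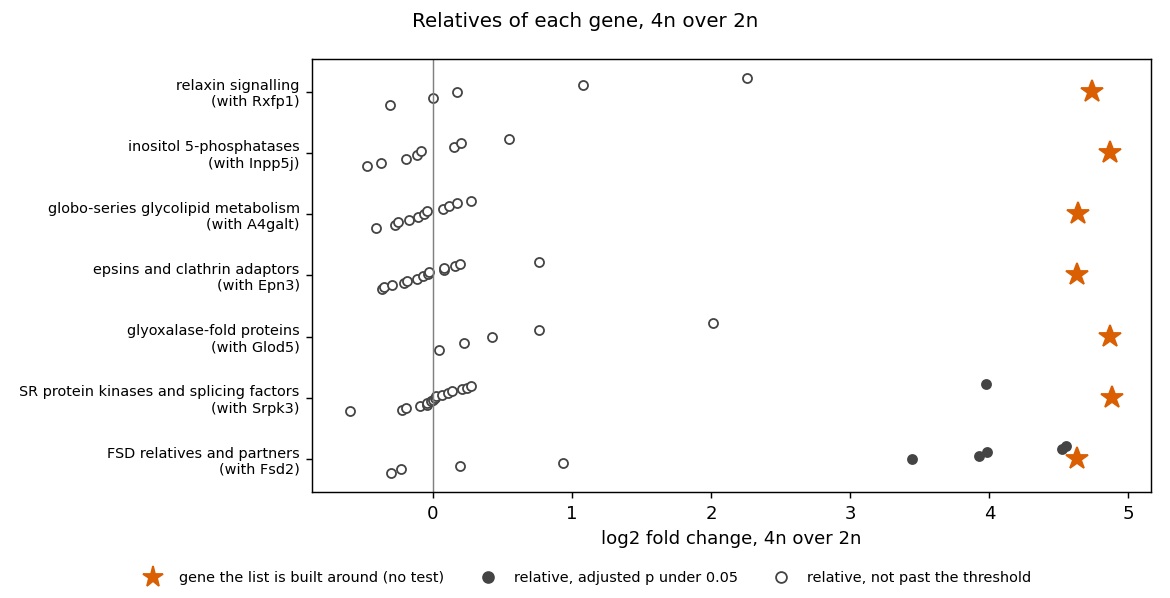
Log2 fold change of 4n over 2n for the tested relatives of each gene, by list (circles, filled where the edgeR adjusted p is under 0.05), with the gene the list is built around as a star, shown without a test because it was chosen on this contrast. The filled circles are 1 gene of the splicing list and 5 of the Fsd2 list, and the other relatives lie between -0.59 and 2.26.

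The 7 genes lay on 6 chromosomes, with Glod5 and Srpk3 both on X but far apart, and none overlapped another gene with counts. The nearest tested gene on each side was looked up for each, 14 in all. In edgeR, 0 of these 14 were called, with 3 higher at p under 0.05 before adjustment and 2 called by DESeq2. Of all tested genes, edgeR called 2.67% higher, so 0 of 14 says nothing about neighbours. Their median log2 fold change was 0.23, against -0.01 over all genes, a difference that was not tested. Idh3g, a mitochondrial isocitrate dehydrogenase subunit that lies 91 bases from Srpk3, averaged 95.6 CPM in 4n and 47.8 CPM in 2n, a log2 difference of 1.00 ± 0.26 (edgeR adjusted p = 0.0885). Cacna1g, a T-type calcium channel 22914 bases from Epn3, averaged 70.9 CPM in 4n and 19.0 CPM in 2n, a log2 difference of 1.90 ± 0.48 (edgeR adjusted p = 0.0767). Mycbpap, 2967 bases from Epn3 on the other side, had 0.73 ± 0.26 (edgeR adjusted p = 0.188). The other neighbours lay between -0.42 for Cpeb1, next to Fsd2, and 0.31 for Cyb5r3, next to A4galt. The strand setting of the counting is unknown here, so signal from a neighbouring gene on the other strand could enter a gene's count where both meet.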

How the data were processed

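Messenger RNA of 8 sorted cell fractions was sequenced; the 4n and 2n fractions of 1 replicate number may come from the same culture. The submitters' processing notes name HISAT2 2.0.4 and the build Rnor_6.0. How reads were assigned to genes, and with which strand setting, is not given in the sources used here. Per the file headers, the deposited columns are counts, whole numbers per gene and not normalized, and FPKM, scaled by the authors for gene length and depth. Col1a2 and Myh9, abundant in many cells, are listed at 0 in all 8 libraries, so a 0 need not mean no RNA.

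Counts were fitted with edgeR 4.0.16 in R 4.3.3: filterByExpr (12983 genes), TMM scaling, a robust quasi-likelihood model, two-sided tests and Benjamini-Hochberg adjustment over all genes, at 0.05. One model had the group, the other the group and the log2 CPM (prior count 2) of Actc1 or Tnnc1 centred within groups. Both were run on simulated data. The simulated slopes had the same base level in both groups, so genes as low in 2n as the members were not covered. SE values come from the estimate and its F statistic, and intervals from the moderated degrees of freedom. DESeq2 1.42.0 and limma 3.58.1 on log2(FPKM + 0.1) were alternatives.

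Groups and numbers come from the titles. The numbers were taken to pair libraries because the descriptions of same-numbered libraries begin with the same code and their deviations from the group means correlated at 0.43, 0.58, 0.27 and 0.65 for replicates 1 to 4. Libraries of a group differed beyond sampling noise (chi-square per degree of freedom 34.9 or more), so none was counted as a repeat.

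The members and lists were chosen with earlier results of these data known. Named genes are the members, Actc1, Tnnc1, list genes past the threshold (at most 4 per list) with the one of highest CPM over both groups that did not pass, closest neighbours, and the 3 most similar profiles among named genes of at least 5 CPM in 4n; 1 gene that this rule names is not reported here. Of 78 listed relatives, 77 were in the table and 69 tested. The 9 marker lists include an erythroid one, with 1 count in 2n and 0 in 4n.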

Additional observations from a re-analysis of the deposited data

Results flagged for a closer look

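Among 42 sets of 4 libraries (7 genes, 2 groups, 3 quantities), 3 had a library far from the others, where chance marks about 1 in 20. Inpp5j had 44.7 counts per 10000 Actc1 counts in 2n replicate 4, against 14.8 to 18.7 in the other 2n libraries. A4galt had 26.9 counts per 1000 Tnnc1 counts in 2n replicate 1, against 16.2 to 17.3 in the other 2n libraries, on 11 counts. Srpk3 had 32.8 counts per 10000 Actc1 counts in 4n replicate 2, against 24.96 to 25.7 in the other 4n libraries.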

How the results depend on the processing

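The members' slopes kept a positive sign under every alternative run, and their fold changes too. The number of members called on Actc1 (5 of 7) was 2 with the replicate block, 3 with total count scaling, 1 with limma on log2 FPKM and 0 in the 2n libraries alone, and between 0 and 6 on leaving out single libraries. The number on Tnnc1 (6 of 7) was 2 with the replicate block and 0 in the 2n libraries alone, and between 0 and 7 on leaving out single libraries. In the 2n libraries alone 0 of all genes were called, with 1017 and 498 positive at an unadjusted p under 0.05 on Actc1 and Tnnc1, and in the 4n libraries alone 5 and 4 members were called. Fits with fewer libraries have fewer samples; otherwise the cause was not tested. Relatives called higher in 4n (6 of 69) were between 0 and 9 on leaving out single libraries and 7 with the replicate block. Total count scaling and FPKM moved the median log2 fold change of all genes to -0.25 and -0.26, and limma on log2(FPKM + 0.1) lowered the log2 fold changes of all 7 members, to between 2.63, for Epn3, and 3.90, for Srpk3, with Rxfp1 at 3.03. Members had 1 to 22 counts in a 2n library.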
